A study of Mus musculus with 18 samples.

Results

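The cochlea is tuned along its length, with the base responding to high and the apex to low frequencies. The step from the middle to the apex was compared here between control mice and mice lacking Fst conditionally (Fst cKO). Fst encodes follistatin, a secreted protein that binds activins and some BMPs and keeps them from their receptors, and the series title places it upstream of the hedgehog-dependent patterning of the apical cochlea. A gene with a step is one whose level differs between apex and middle within a genotype. The step difference is the cKO step minus the control step, (cKO apex minus cKO middle) minus (control apex minus control middle), and it is the same quantity as the genotype difference in the apex minus the genotype difference in the middle. The question was which steps shrank, grew or inverted in the cKO, and which pool carried each change.

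The comparison used 12 of the 18 libraries of the series: the control middle, control apex, cKO middle and cKO apex groups, with 3 libraries each. All mice were 4 weeks old and untreated. The controls were labelled wild type, the cKO mice carried the Fst cKO genotype, and the labels used here name no Cre driver and give no number of animals or their sex. Cochleae were cut into base, middle and apex, each region of each genotype was pooled, RNA was extracted from the pool, and that RNA was divided into 3 technical libraries. Each group was therefore 1 pool. Every p-value below measures the spread between libraries of the same RNA and carries no spread between animals or dissections, so a difference between pools of tissue cannot be told apart from a difference between genotypes or regions. In such bulk RNA, fewer cells of a type and less RNA per cell also cannot be told apart. The 6 base libraries entered no test and are given as levels beside the results.

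The 12 libraries held 26896408 to 33732709 counts each, and 3 counts corresponded to 0.0889 to 0.112 CPM, the count scaled to the library total. In the fit of 17634 genes a step or difference was called where the Benjamini-Hochberg adjusted p of edgeR's quasi-likelihood test was under 0.05 and its log2 value was at least 1 in size. The log2 values are fitted differences, and the levels are CPM. The targeted gene Fst fell in the cKO in both regions. It measured 6.82, 6.58 and 5.73 CPM in the control middle libraries and 23.4, 25.1 and 24.8 CPM in the control apex libraries. The cKO middle libraries held 2.71, 2.88 and 3.38 CPM and the cKO apex libraries 9.67, 9.55 and 10.3 CPM. The cKO libraries lay below the control libraries of the same region without overlap, by a log2 value of -1.1 in the middle and -1.29 in the apex (edgeR adjusted p = 9.47e-11 and 7.44e-18). Whether the counted reads lie in the deleted part is not given in the sources used here. The Fst step itself was 1.9 in the control and 1.71 in the cKO, a step difference of -0.19 ± 0.12 (SE) that was not called (adjusted p = 0.24). Xist, the transcript of the inactive X chromosome of females, was 297 and 371 CPM in the control middle and apex and 87.5 and 81.9 CPM in the cKO middle and apex, so the sex of the pooled mice and their genotype cannot be told apart. None of the 6 sex-chromosome transcripts tested, Xist included (-0.38), was called for the step difference.

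Across all genes tested, 632 of 17634 were called for the step difference (3.58%), 287 with a value above 0 (1.63%) and 345 with a value below 0 (1.96%). The median step difference over all genes was 0.001. The shares of 3.58%, 1.63% and 1.96% are those to set beside the counts of each list below. The control step was called for 921 genes (5.22%), 378 higher (2.14%) and 543 lower (3.08%) in the apex, and the cKO step for 783 genes (4.44%), 296 higher (1.68%) and 487 lower (2.76%) in the apex. The 2 steps share no library. Of the genes higher in the apex, 135 were called in both genotypes, 35.7% of the control's and 45.6% of the cKO's, and of those lower in the apex 153 were, 28.2% and 31.4%. Over the 17634 genes the control and cKO steps correlated with Pearson's r = 0.377 and Spearman's rho = 0.41, a description across genes, which are not independent replicates. The requirement of a log2 value of 1 did much of the selecting, since 3587 genes passed above 0 and 3303 below 0 on the adjusted p alone.

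The called genes were put in 3 classes by their steps. A step was inverted where both steps were called with opposite signs, otherwise shrunk where the cKO step was the smaller in size and grown where it was the larger. Shrunk steps numbered 303, grown steps 307 and inverted steps 22. Shrunk steps mostly had values above 0 (216 of 303), with a median control step of -1.73 and a median cKO step of -0.22. Of these 216 genes 188 had a called control step and 7 a called cKO step. Grown steps mostly had values below 0 (240 of 307), with a median control step of 0.16 and a median cKO step of -1.67. The 18 inverted genes with a value below 0 had a median control step of 1.52 and a median cKO step of -1.55. These medians follow from how the classes are defined and are given as a description. The 2 steps also had opposite signs, without both being called, in 123 of the 303 shrunk and 185 of the 307 grown genes. Of all 17634 genes tested, 6673 had steps of opposite sign. Of the 632 genes, 200 reached a mean of 5 CPM in at least 1 of the 4 pools, 81 shrunk, 113 grown and 6 inverted.

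**Figure D1:**
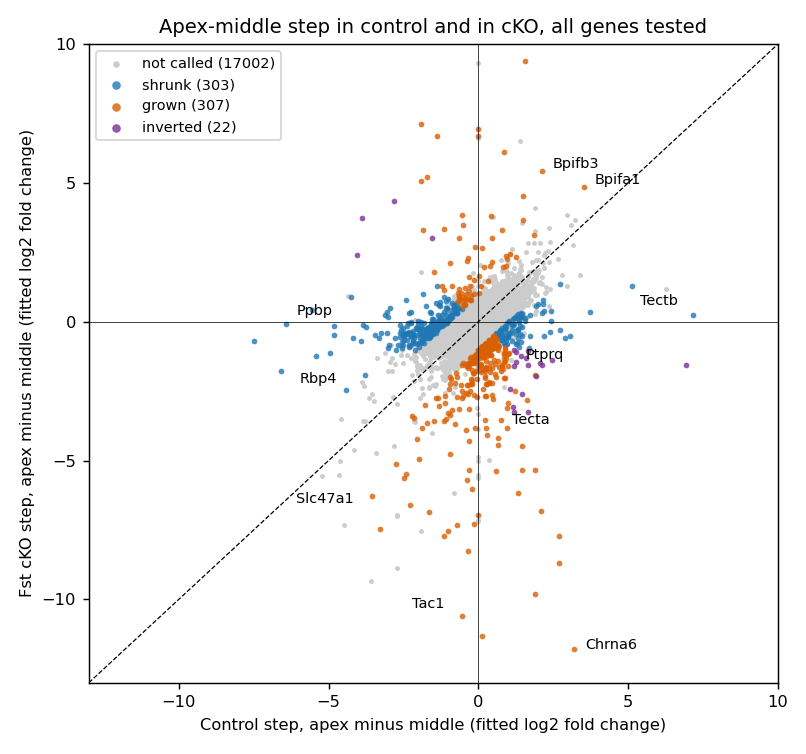
Fitted log2 step from middle to apex in the control (x axis) and in the Fst cKO (y axis) for 17634 genes, 1 point per gene, coloured by class with the number of genes in the key; the dashed line marks equal steps. By definition the 303 shrunk genes lie closer to the horizontal than to the vertical axis, and the 307 grown genes closer to the vertical. Tectb lies at 5.14 and 1.27, and Rbp4, also shrunk, at -4.41 and -2.47. Fitted values of genes at or near 0 counts in a pool are not measured folds.

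The pool that carried each change was sought in 2 ways. By region, the genotype difference was called in the middle only for 221 of the 632 genes, in the apex only for 147, in both for 36 and in neither for 228. Over all genes tested the genotype difference was called for 478 genes in the middle (2.71%), 378 higher (2.14%) and 100 lower (0.567%) in the cKO. In the apex it was called for 344 (1.95%), 254 higher (1.44%) and 90 lower (0.51%), and the step difference is built from these 2 differences. By pool, a pool stood apart where its mean log2 CPM lay at least 1 above or below the nearest of the other 3 and this gap was larger than the range of those 3. The cKO middle stood high for 119 genes and the control apex low for 70. The cKO apex stood high for 29 genes and the control middle low for 26. No single pool stood apart for 357 genes. All 70 genes with a low control apex had shrunk steps, and 113 of the 119 genes with a high cKO middle had grown steps. This follows largely from the definitions, since a pool that stands apart makes the step of its own genotype the larger. Middle-only changes mostly lowered the step difference (194 of 221), and apex-only changes mostly raised it (117 of 147).

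**Figure D2:**
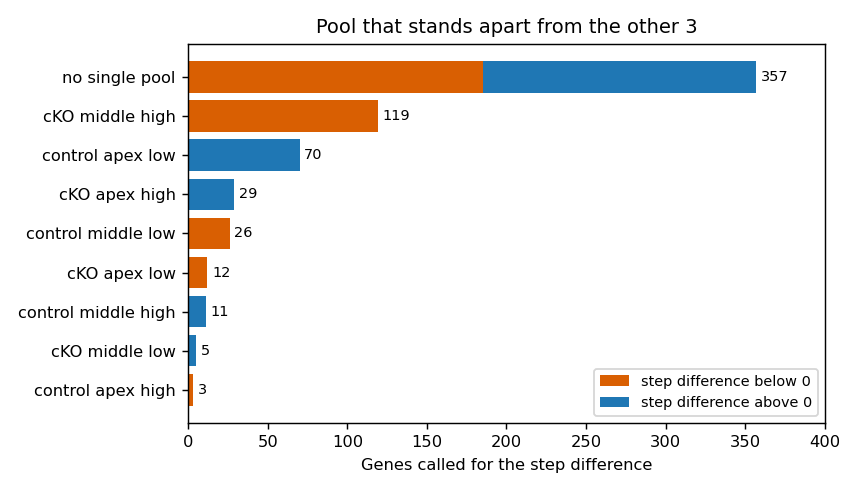
Number of the 632 called genes (x axis) by the pool that stood apart from the other 3 (y axis), split by the sign of the step difference. The cKO middle stood high for 119 genes, all with a difference below 0, and the control apex low for 70 genes, all with a difference above 0. These signs follow from the definition of a pool that stands apart.

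The base pools, which had no part in these choices, were set beside them. By the choice itself each pool was already the highest or lowest of the 4, so only the 2 base pools could go beyond it. The counts below are therefore a description. Of the 119 genes high in the cKO middle, 106 also had their highest level of all 6 pools there. Their median level was 3.93 CPM in the cKO middle against 0.575 CPM in the control middle, 0.522 CPM in the control apex, 0.519 CPM in the cKO apex, 0.956 CPM in the control base and 1.26 CPM in the cKO base. In 66 of the 119 the other 3 pools averaged under 1 CPM. Of the 70 genes low in the control apex, 68 had their lowest level of all 6 pools there, with a median of 0.482 CPM against 2.37 CPM in the control middle and 0.933 CPM in the control base. All 29 genes high in the cKO apex had their highest level of the 6 pools there, at a median of 0.927 CPM against 0.128 to 0.195 CPM in the other 5. In 25 of the 29 the other 3 middle and apex pools averaged under 1 CPM. Of the 26 genes low in the control middle, 16 had their lowest level of the 6 pools there.

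The tectorial membrane is the acellular gel that lies over the hair cells and couples sound-driven motion to their bundles, and Tectb and Tecta encode its tectorins. Of 13 members tested in a list of tectorial and related gel proteins, 4 were called, all with a step difference below 0 (30.8%, against 1.96% of all genes), while the median of the list was 0.05. Tectb (chr19:55180733-55196313, plus strand, GRCm38) measured 0.969, 0.723 and 0.621 CPM in the control middle, 27.4, 28.6 and 28.2 CPM in the control apex, 3.4, 3.94 and 3.91 CPM in the cKO middle and 8.74, 9.22 and 9.44 CPM in the cKO apex. The control apex was the highest and the control middle the lowest, with the 2 cKO pools between them and no overlap between any of the 4. Its step was 5.14 in the control and 1.27 in the cKO, a step difference of -3.86 ± 0.16 (SE; adjusted p = 1.89e-19). The shrinkage came from both ends, since Tectb was lower in the cKO apex by a log2 value of -1.6 and higher in the cKO middle by 2.27. The base held 0.143 CPM in the control and 0.0899 CPM in the cKO.

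Tecta (chr9:42329619-42399929, minus strand), the partner tectorin, changed in another way. It measured 1.21, 1.07 and 0.725 CPM in the control middle, 1.57, 1.64 and 2.09 CPM in the control apex and 1.56, 1.41 and 1.37 CPM in the cKO apex, but 16.1, 17.8 and 16.4 CPM in the cKO middle. The 3 cKO middle libraries lay above all 9 others, and the genotype difference in the apex was not called (log2 -0.26, adjusted p = 0.262). The step difference of -4.31 ± 0.24 was a grown step, from 0.77 in the control to -3.54 in the cKO. Otog, which encodes otogelin of the same gels, had a control middle of 67 ± 0.991 CPM (SD, n = 3 libraries) below the control apex (182 ± 0.838), cKO middle (160 ± 1.32) and cKO apex (179 ± 4.01). Its step shrank (-1.24 ± 0.03), with the control middle standing low and a genotype difference in the apex of log2 0 (adjusted p = 0.887). The 2 base pools, at 83.1 CPM in the control and 92.3 CPM in the cKO, were nearer to the control middle than to the other 3. Otol1, which encodes the inner-ear protein otolin, inverted (grown on log2(FPKM + 1) with limma): it rose from 0.587 CPM in the middle to 2.68 CPM in the apex of the control and fell from 4.85 CPM to 1.64 CPM in the cKO (step difference -3.71 ± 0.27). Among the 9 members not called, Otogl had -0.65, Otoa -0.69 and Ceacam16, a tectorial membrane protein, 0.05, and the collagens Col2a1, Col9a1, Col9a2, Col9a3 and Col11a2 lay between 0.05 and 0.38.

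RefSeq promoter windows of 250 bases before the start site (GRCm38.p6) are shown for Tectb and Tecta, whose steps changed in different pools, in lower case with a match to the GATA letters AGATAA or TGATAA, searched on both strands, in capitals.
Tectb: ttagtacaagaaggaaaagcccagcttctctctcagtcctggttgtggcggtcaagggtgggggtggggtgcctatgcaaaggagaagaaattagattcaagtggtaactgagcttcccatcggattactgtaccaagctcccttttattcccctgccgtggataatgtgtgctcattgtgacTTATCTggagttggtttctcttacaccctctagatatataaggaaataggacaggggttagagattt
Tecta: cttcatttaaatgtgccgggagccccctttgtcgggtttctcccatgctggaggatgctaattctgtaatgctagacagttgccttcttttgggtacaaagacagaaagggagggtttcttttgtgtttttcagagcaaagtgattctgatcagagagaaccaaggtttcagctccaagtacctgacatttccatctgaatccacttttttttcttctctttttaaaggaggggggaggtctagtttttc
The Tectb window is chr19:55180476-55180725 on the plus strand and holds 1 match, AGATAA on the minus strand starting 67 bases before the start site. The Tecta window is chr9:42399948-42400197 on the minus strand and holds none. Of 27025 genes with such a window, 18.8% hold these letters and 0.255% hold GACCACCCA, the letters bound by the GLI factors of hedgehog signalling, which neither tectorin window holds. A match is a description of letters and not a binding site, and the absence of the rare GACCACCCA from so few windows says little.

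Hair cells convert sound into electrical signals. The median step of their markers was 1.2 in the control and 0.37 in the cKO. Of 26 hair cell genes tested, 7 were called for the step difference, all below 0 (26.9%, against 1.96% of all genes). The list median was -0.46, with 22 of 26 members below 0. Ptprq, a phosphatase of the hair bundle, measured 5.11 ± 0.53 CPM in the control middle, 12.1 ± 0.377 in the control apex, 29.3 ± 1.24 in the cKO middle and 9.72 ± 0.0733 in the cKO apex (SD, n = 3 libraries). The cKO middle stood above the other 3, and the step inverted from 1.2 to -1.6 (step difference -2.8 ± 0.092, adjusted p = 3.98e-22). The class of Ptprq became grown when tested against a log2 value of 1, and on log2(FPKM + 1) with limma. Xirp2, an actin-binding protein of the bundle and cuticular plate, inverted as well (0.414 to 1.81 CPM in the control, 3.12 to 1.11 CPM in the cKO; -3.57 ± 0.28). Espnl, related to the bundle protein espin, stood high in the cKO middle (4.88 CPM against 1.09 to 1.96 CPM; -2.37 ± 0.26). Gfi1, a transcription factor needed for hair cell survival, had -1.23 ± 0.13, Loxhd1 of the stereocilia -1.17 ± 0.098 and Grxcr1 -1.39 ± 0.4, each with a shrunk step. The seventh, Rasd2, had -1.05 ± 0.22.

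Other general hair cell genes did not pass the size limit: the bundle motor gene Myo7a had -0.37, Pou4f3 -0.39, Otof -0.74, Strc -0.4 and the transduction channel gene Tmc1 -0.97. Of the outer hair cell genes, Slc26a5, which encodes prestin, had 0.02 and Ocm -0.03, with steps of 1.67 to 1.76 in the control and 1.64 to 1.78 in the cKO. Of 9 inner hair cell genes, Slc17a8, the glutamate transporter of these cells, had -0.68, and the called member was Tbc1d10c (1.22 ± 0.31). None of 20 supporting cell genes was called (median 0.14, range -0.67 to 0.44). On log2(FPKM + 1) with limma, 1 of the 26 hair cell genes was called, and 3 were when tested against a log2 value of 1 (glmTreat).

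Among neurons, the spiral ganglion list, which covers the neurons that carry the signal to the brain, had 4 of 26 members called (15.4%, against 3.58% of all genes). Syt1, a synaptic vesicle calcium sensor, measured 4.29, 4.31 and 5.14 CPM in the control middle, 9.82, 10.3 and 8.9 CPM in the control apex, 52.8, 52.5 and 53.8 CPM in the cKO middle and 9.67, 10.3 and 10 CPM in the cKO apex. The cKO middle stood far above the other 3 pools, whose 2 apices overlapped, and the cKO base held 22.7 CPM against 3.55 CPM in the control base. The Syt1 step inverted, from 1.04 to -2.42 (-3.45 ± 0.093). Its control step lies close to the threshold, and the class became grown without control middle replicate 1 or control apex replicate 2. The calcium-binding protein gene Calb1 had the same ordering (8.95, 12, 47.6 and 13.6 CPM in control middle, control apex, cKO middle and cKO apex; -2.2 ± 0.079), and the glutamate transporter gene Slc17a6 a smaller difference (-1.12 ± 0.04). Th, the rate-limiting enzyme of catecholamine synthesis, went the other way, with its step growing from 1.07 to 2.45 and the cKO middle low at 0.782 CPM (1.38 ± 0.22). The abundant neuronal genes Nefl, Nefm, Nefh, Snap25 and Tubb3 had step differences of -0.33 to -0.55, none called. The summed level of the spiral ganglion list was 8200 CPM in the control middle, 9870 in the control apex, 7680 in the cKO middle and 7470 in the cKO apex.

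Markers of brain neurons numbered 22, of which 15 passed the filter on low counts. The 8 called members all had grown steps below 0, 6 of them with the cKO middle high. Members such as Chrna6, Tac1 and Onecut1 passed the filter through the cKO middle, where they are high, so the share called among tested members is no measure of the list. Chrna6, a nicotinic receptor subunit, was at 0 in all 3 control middle and all 3 cKO apex libraries and at 14.9, 15.3 and 14.6 CPM in the cKO middle. Against 3 counts over the group, the cKO middle was at least 433-fold higher than the control middle and at least 403-fold higher than the cKO apex. Tac1, which encodes substance P, was at 6.28, 6.17 and 6.79 CPM in the cKO middle and at 0 in the cKO apex, at least 173-fold lower. The transcription factor gene Onecut1 was at 3.6, 3.14 and 3.62 CPM in the cKO middle and at 0 in the control middle, which leaves it at least 100-fold higher. Rgs8, a regulator of G-protein signalling, had 1019 counts in the cKO middle against 2 in the control middle, a ratio of 438 (95% interval 121 to 3620, counting error only). Hs3st2, an enzyme of heparan sulphate synthesis, held 14.4 CPM in the cKO middle against 0.0348 to 0.0865 CPM in the other 3. Chrnb3, a subunit that pairs with Chrna6, held 18.4 CPM in the cKO middle, but with the control apex at 0 the control step could not be estimated and the step difference was not called (adjusted p = 0.95).

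The cKO base held another set of brain transcripts. Gabra6 and Cbln3, known from cerebellar granule cells, were 21.9 and 63.4 CPM in the cKO base and no more than 0.0397 and 1.84 CPM in any of the 4 middle and apex pools, while Chrna6, Chrnb3 and Hs3st2 were 0.0257, 0.0514 and 0.18 CPM in the cKO base. Rgs8 was high in both, at 34 CPM in the cKO base and 10.1 CPM in the cKO middle. The summed brain neuron list was 260 CPM in the control middle, 178 in the control apex, 367 in the cKO middle and 262 in the cKO apex, with 601 in the cKO base and 277 in the control base. Its part in the other results with a high cKO middle was not tested.

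The same pool stood out for potassium channels. Potassium, sodium and pacemaker channels set how a neuron or hair cell fires. Of 24 such genes, 5 were called and all 5 had a step difference below 0 (20.8%, against 1.96% of all genes). In this list 21 of 24 lay below 0, with a median of -0.37. Kcnc2, a fast delayed rectifier, measured 2.77, 2.41 and 2.42 CPM in the control middle, 2.62, 3.51 and 3.16 CPM in the control apex, 3.9, 3.15 and 2.89 CPM in the cKO apex and 45.8, 46.1 and 48.3 CPM in the cKO middle. The cKO middle libraries lay above all others and the 3 remaining pools overlapped or nearly so (step difference -4.07 ± 0.16, adjusted p = 8.35e-20). The 2 base pools were at 2.56 and 2.53 CPM. Kcnd3 (-2.54 ± 0.14) and Kcnh7 (-1.3 ± 0.081) were also high in the cKO middle, and Kcnd2 had -1.19 ± 0.19. Kcnq5 (20.4 CPM in the cKO middle, 0.476 to 0.575 CPM in the other 3) and Kcnb2 (46.5 CPM against 7.01 to 13.5 CPM), named after their values were seen, had the same pattern. Other grown steps with a high cKO middle were those of Fam19a2 (25.3 CPM against 0.128 to 0.161 CPM) and Fam163b (8.82 CPM against 0.0247 to 0.115 CPM).

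Ptprq and Syt1 belong to 6 inverted genes of at least 5 CPM, and 3 of the other 4 also had their highest level in the cKO middle. Grid2ip, a scaffold protein known from cerebellar synapses, went from 2.16 CPM in the middle to 5 CPM in the apex of the control and from 31 to 3.67 CPM in the cKO (-4.25 ± 0.15). RP23-372N19.2 went from 1.61 to 3.81 CPM and from 26.9 to 2.82 CPM (-4.46 ± 0.16). It lies at chr5:143395503-143398244, just downstream of Grid2ip on the same strand (chr5:143357338-143392152), so reads of 1 transcript could fall in both, and the pair is counted as uncertain. Pcp4, a calmodulin regulator, went from 17 to 52.6 CPM in the control and from 101 to 41.1 CPM in the cKO (-2.89 ± 0.054). In these 3 the genotype difference was called in the middle only. The sixth, a second record of the symbol Atn1 (ENSMUSG00000107478), had the opposite sign (7.62 ± 1.3), varied between libraries of 1 pool (0.0372, 3.26 and 0.037 CPM in the cKO apex) and was not called without cKO apex replicate 2, at 2.86. The inverted class was the least stable: 22 genes here, 13 with DESeq2 and 1 on log2(FPKM + 1) with limma. Ptprq, Syt1, Grid2ip and RP23-372N19.2 were classed as grown with glmTreat and on log2(FPKM + 1) with limma.

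**Figure D3:**
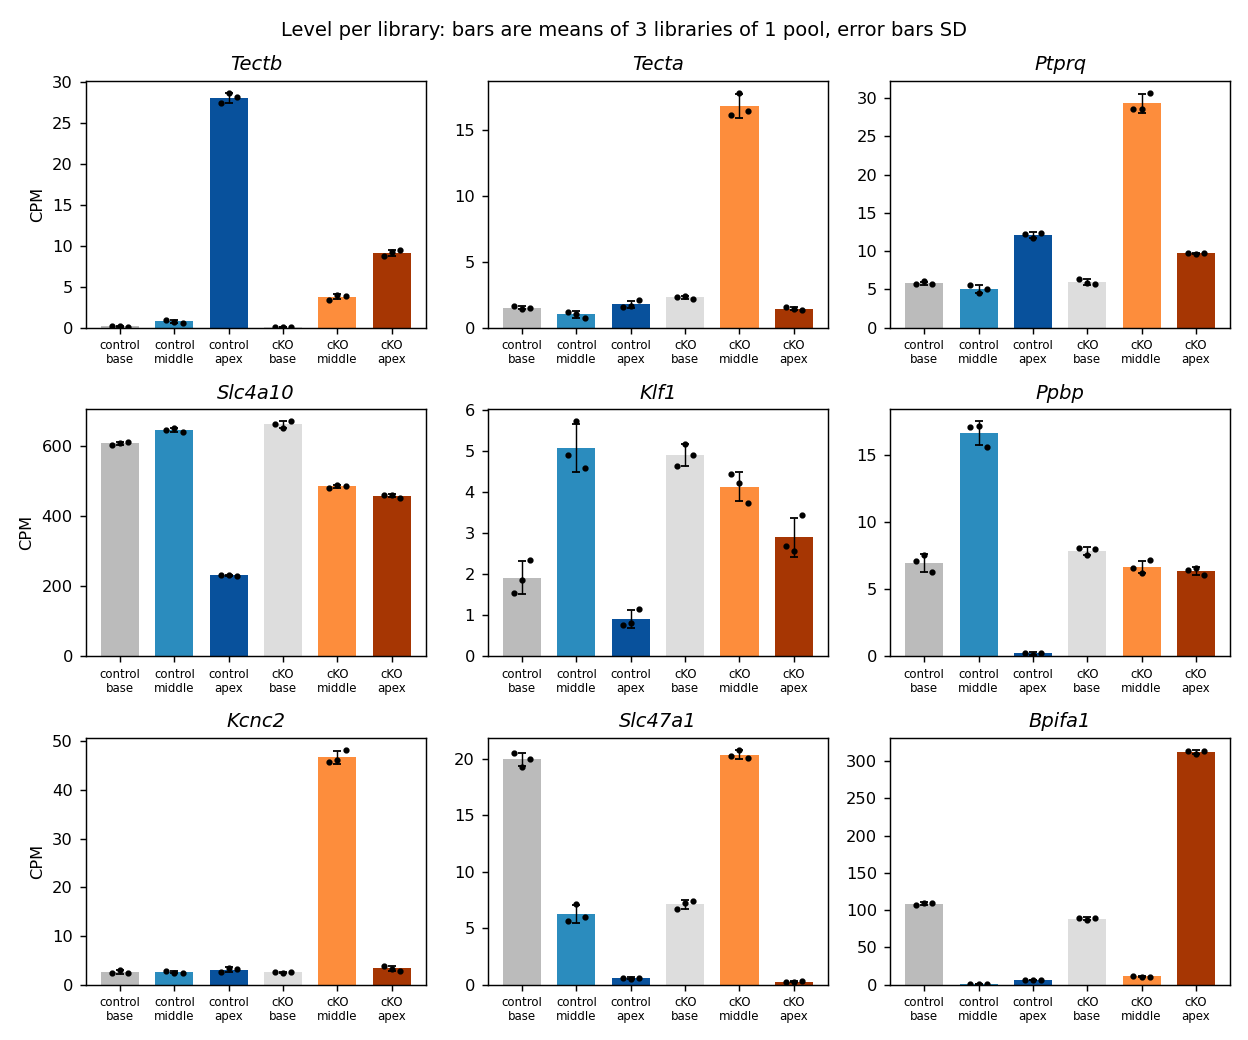
Level in CPM (y axes, linear from 0) of 9 genes in the 6 pools, control base, middle and apex and cKO base, middle and apex; bars are means of 3 technical libraries of 1 pool, points the libraries and error bars the SD. Tectb is high in the control apex (28.1 CPM), Tecta (16.8 CPM), Ptprq (29.3 CPM) and Kcnc2 (46.7 CPM) in the cKO middle, and Bpifa1 (312 CPM) in the cKO apex, while Slc4a10 (231 CPM), Klf1 (0.905 CPM) and Ppbp (0.197 CPM) are low in the control apex.

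Blood and marrow transcripts had shrunk steps above 0. Marrow fills the bone around the cochlea, and red cells, platelets and neutrophils carry RNA of their own. Of 14 red blood cell genes tested, 12 were called, all above 0 (85.7%, against 1.63% of all genes), all shrunk and all with the control apex low. The list median was 1.51. Klf1, the erythroid transcription factor, measured 4.91, 5.72 and 4.59 CPM in the control middle, 0.769, 0.8 and 1.15 CPM in the control apex, 4.44, 4.21 and 3.74 CPM in the cKO middle and 2.68, 2.55 and 3.44 CPM in the cKO apex. The control apex lay below the other 3 pools without overlap, and the step went from -2.52 to -0.52 (2 ± 0.23, adjusted p = 1.31e-08). Rhd (2 ± 0.22), a protein of the red cell membrane, and the haemoglobin gene Hbb-bs (365, 157, 411 and 392 CPM in control middle, control apex, cKO middle and cKO apex; 1.19 ± 0.021) also had the control apex lowest of these 4 pools, although reads of the near-identical globin copies may be split between genes. The erythroid gene Trim10 had 1.97 ± 0.18. The summed list was 1320 CPM in the control middle, 812 in the control apex, 1350 in the cKO middle and 1380 in the cKO apex, with 858 in the control base and 1980 in the cKO base.

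Platelet genes had the larger values. Of 10 tested, 8 were called, all above 0 (80%, against 1.63% of all genes) and all shrunk, 7 with the control apex low. The list median was 2.91. Ppbp, a chemokine of platelet granules, measured 17.1, 17.2 and 15.6 CPM in the control middle and 0.245, 0.104 and 0.243 CPM in the control apex. The cKO middle held 6.58, 6.23 and 7.14 CPM and the cKO apex 6.43, 6.59 and 6.03 CPM. The control middle was the highest, the control apex the lowest, and the cKO middle and apex overlapped. The step of -6.41 in the control became -0.07 in the cKO (6.33 ± 0.21, adjusted p = 2.87e-22), with the genotype difference called in both regions and in opposite directions (5 in the apex, -1.33 in the middle). The 2 base pools held 6.96 and 7.84 CPM. Tubb1, the platelet tubulin (5.14 ± 0.33), Treml1 (4.68 ± 0.47) and Pf4 (2.25 ± 0.19) were also highest in the control middle and lowest in the control apex of these 4 pools. Unlike Ppbp, Tubb1 was higher in the cKO apex (2.75, 2.18 and 2.07 CPM) than in the cKO middle (1.04, 1.36 and 1.33 CPM) without overlap. Gp9, part of the platelet adhesion receptor, had 155 counts in the control middle and 3 in the control apex, a ratio of 51.2 (95% interval 17.2 to 251, counting error only). Itga2b, which marks the megakaryocyte lineage, had 0.61 and was not called.

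Promoter windows of the called red cell and platelet members were searched for the same GATA letters. Of the 12 called red cell members, 9 had a RefSeq window, and all 9 held AGATAA or TGATAA on either strand. Among called platelet members with a window, 1 of 7 held them (14.3%), against 18.8% of all genes. Over all members of both lists, called or not, 12 of 21 with a window held them (57.1%). The windows are few, and the 9 include the globin copies Hba-a1 and Hba-a2, so the counts are a description. Klf1 and Rhd are shown as examples with the match in capitals, and Ppbp as one without.
Klf1: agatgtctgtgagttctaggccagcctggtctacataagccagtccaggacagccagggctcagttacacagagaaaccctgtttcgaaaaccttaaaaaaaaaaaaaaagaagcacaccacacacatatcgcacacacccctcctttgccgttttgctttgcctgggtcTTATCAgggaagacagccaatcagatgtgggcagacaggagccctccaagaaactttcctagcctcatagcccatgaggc
Rhd: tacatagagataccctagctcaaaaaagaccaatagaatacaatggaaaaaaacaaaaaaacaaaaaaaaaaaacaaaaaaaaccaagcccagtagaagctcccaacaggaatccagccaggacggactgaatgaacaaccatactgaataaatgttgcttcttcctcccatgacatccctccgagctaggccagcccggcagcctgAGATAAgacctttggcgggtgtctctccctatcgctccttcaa
Ppbp: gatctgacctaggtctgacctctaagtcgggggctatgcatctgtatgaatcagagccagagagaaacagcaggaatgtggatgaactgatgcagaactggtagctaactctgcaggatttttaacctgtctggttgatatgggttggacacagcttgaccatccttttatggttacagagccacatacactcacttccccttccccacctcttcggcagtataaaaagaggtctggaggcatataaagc
The windows are chr8:84901732-84901981, chr4:134864286-134864535 and chr5:90768268-90768517, all on the plus strand. The match starts 80 bases before the start site in Klf1 (TGATAA, minus strand) and 43 bases before it in Rhd (AGATAA, plus strand). None of the 16 windows of called red cell and platelet members held GACCACCCA. Since 0.255% of all genes hold these letters, their absence from so few windows says little about these genes. Tectb, whose step difference has the opposite sign, also holds AGATAA.

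Myeloid and cycling-cell genes moved the same way. Of 15 neutrophil genes 8 were called, all above 0 (53.3%, against 1.63% of all genes) and all shrunk, and all 15 lay above 0 (median 1.09). Elane, the neutrophil elastase, went from 7.63 to 1.69 CPM between control middle and apex and from 3.88 to 2.98 CPM in the cKO (1.82 ± 0.18), and Retnlg (1.81 ± 0.17), Prtn3 (1.68 ± 0.16) and Ctsg (1.9 ± 0.35) had similar values. The summed neutrophil list was 311 CPM in the control middle, 94.7 in the control apex, 270 in the cKO middle and 153 in the cKO apex. Of 15 cell cycle genes 11 were called, all above 0 (73.3%, against 1.63% of all genes) and all shrunk, with a median of 1.09. The proliferation marker Mki67 measured 40.3 ± 1.84 CPM in the control middle, 10.3 ± 0.788 in the control apex, 35 ± 0.635 in the cKO middle and 20.7 ± 0.763 in the cKO apex (SD, n = 3 libraries; 1.24 ± 0.069). Aurkb had 1.79 ± 0.3 and Ccnb1 1.72 ± 0.25. On log2(FPKM + 1) with limma, and with glmTreat, 1 of the 15 cell cycle genes was called, and of the neutrophil genes 5 and 4. The cell cycle genes are also expressed in marrow, and the part of the blood and marrow markers in their step difference was not tested. Mmp9 (1.45 ± 0.15) and Acp5 (1.2 ± 0.19) were called among 4 osteoclast genes. Of 12 B cell genes 2 were called, Vpreb3 (1.13 ± 0.25) and Igll1 (1.23 ± 0.46), and the call of Igll1 was lost in 7 of the 12 fits that left out 1 library, at values of 0.99 to 1.3. None of the 12 macrophage genes was called (median 0.23).

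A pair of transporter genes of the SLC4 family also had shrunk steps above 0. Slc4a11, expressed in the spiral ligament fibrocytes that flank the cochlear duct, measured 3910 ± 19.9 CPM in the control middle, 1820 ± 13.1 in the control apex, 2810 ± 6.5 in the cKO middle and 2900 ± 10.9 in the cKO apex (SD, n = 3 libraries). Its step of -1.14 in the control was 0.04 in the cKO (1.18 ± 0.0047, adjusted p = 2.19e-48). The genotype difference reached a log2 value of 1 in neither region, at 0.69 in the apex and -0.49 in the middle. Slc4a10, named after its values were seen, was lowest in the control apex (645, 231, 484 and 457 CPM in control middle, control apex, cKO middle and cKO apex; 1.43 ± 0.018). The control apex was also below both base pools, at 607 and 661 CPM. Of 13 fibrocyte and spiral ligament genes, 3 were called (23.1%, against 3.58% of all genes). They were Slc4a11, Gm525 (1.26 ± 0.0087) and, with the opposite sign, the anion transporter gene Slc26a7 (-1.14 ± 0.044). The list median was 0.22. Kl, the co-receptor of a circulating FGF, was named after its values were seen and had steps under 1 in size in opposite directions, from 93.2 to 59.2 CPM in the control and from 74.6 to 102 CPM in the cKO (1.15 ± 0.037).

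The median step of meningeal and transport-epithelium genes was -1.91 in the control and -3.11 in the cKO. Of 14 meningeal and transport-epithelium genes, 7 were called, all below 0 (50%, against 1.96% of all genes) and all grown. No single pool stood apart for any of these 7. The list median was -1.16, and 3 of the 14 members lay above 0. Among these was Ptgds (24400, 18000, 23400 and 21800 CPM in control middle, control apex, cKO middle and cKO apex; 0.37, not called), which makes up most of the summed list of 24700, 18100, 23800 and 21900 CPM, so the sum had the smaller step in the cKO. Slc47a1, an organic cation exporter, measured 5.64, 7.1 and 6 CPM in the control middle, 0.559, 0.452 and 0.626 CPM in the control apex, 20.2, 20.8 and 20.1 CPM in the cKO middle and 0.223, 0.259 and 0.296 CPM in the cKO apex. The 4 pools did not overlap, and the cKO was above the control in the middle (log2 1.69) and below it in the apex (-1.04), a step difference of -2.73 ± 0.35. The control base held 20 CPM and the cKO base 7.12 CPM. Of the 14 genes, 4 were called on log2(FPKM + 1) with limma. The opioid precursor gene Penk had -4.17 ± 0.88, with the genotype difference called in the middle only (log2 2.8). Apex counts of Penk were few, 9 in the control and 3 in the cKO. Their ratio was 2.82 (95% interval 0.704 to 16.2, counting error only), so the apex part of its step difference is uncertain. The organic anion transporter gene Slc22a6 had -3.06 ± 0.26 and the betaine transporter gene Slc6a12 -2.36 ± 0.35. Slc6a13, Slc6a20a and Slc22a8 had -2.16, -1.93 and -1.32. Prg4, a lubricating protein of joint surfaces, fell from 4.42 to 1.16 CPM between control middle and apex and from 12.4 to 0.396 CPM in the cKO (-3 ± 0.28). The transcription factor gene Zic1, of the brain neuron list, fell from 5.35 to 0.975 CPM and from 14.1 to 0.284 CPM (-3.13 ± 0.3) and was 44.8 CPM in the cKO base.

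The cKO apex stood out for airway-type secretory genes. Of 16 members 11 passed the filter on low counts, Cyp2a5 among them through the cKO apex, where it is high, so the share called among tested members is no measure of the list. The 6 called members all had grown steps above 0, 5 of them with the cKO apex high. Bpifa1, a secreted airway defence protein, was 0.588, 0.517 and 0.518 CPM in the control middle, 6.67, 6.12 and 6.68 CPM in the control apex, 11.3, 10.7 and 10.6 CPM in the cKO middle and 314, 309 and 314 CPM in the cKO apex. The 4 pools did not overlap, and the base pools held 109 CPM in the control and 88.6 CPM in the cKO. Because Bpifa1 was higher in the cKO in both regions, by 4.3 in the middle and 5.61 in the apex, its step difference was 1.31 ± 0.22. Cyp2f2, an enzyme of club cells, was 22.9 CPM in the cKO apex against 0.139 to 2.02 CPM in the other 3 (4.01 ± 0.68) and 11.8 CPM in the control base. Bpifb3 grew by another route, with a cKO middle of 0.425 CPM below the control middle of 2.44 CPM (3.3 ± 0.24). Cbr2, a carbonyl reductase, was 18.1 CPM in the cKO apex against 4.84 to 8.57 CPM in the other 3 (2.14 ± 0.12). The club cell secretoglobin gene Scgb1a1 was at 0.0697 CPM or less in all 6 pools. With glmTreat 2 of the 11 airway genes were called. Cyp2a5 (5.26 ± 1.9) and Muc5b (3.08 ± 1.1) rested on few counts, and both lost their calls without control middle replicate 3, at 2.55 and 2.15, as did Muc5b without control apex replicate 2 or 3, at 2.54. Among 15 motile cilia genes Dnah3 was high in the cKO apex (3.66 ± 0.45), and the other called member, Spag6 (-2.14), was not called without control apex replicate 2, at -1.66.

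**Figure D4:**
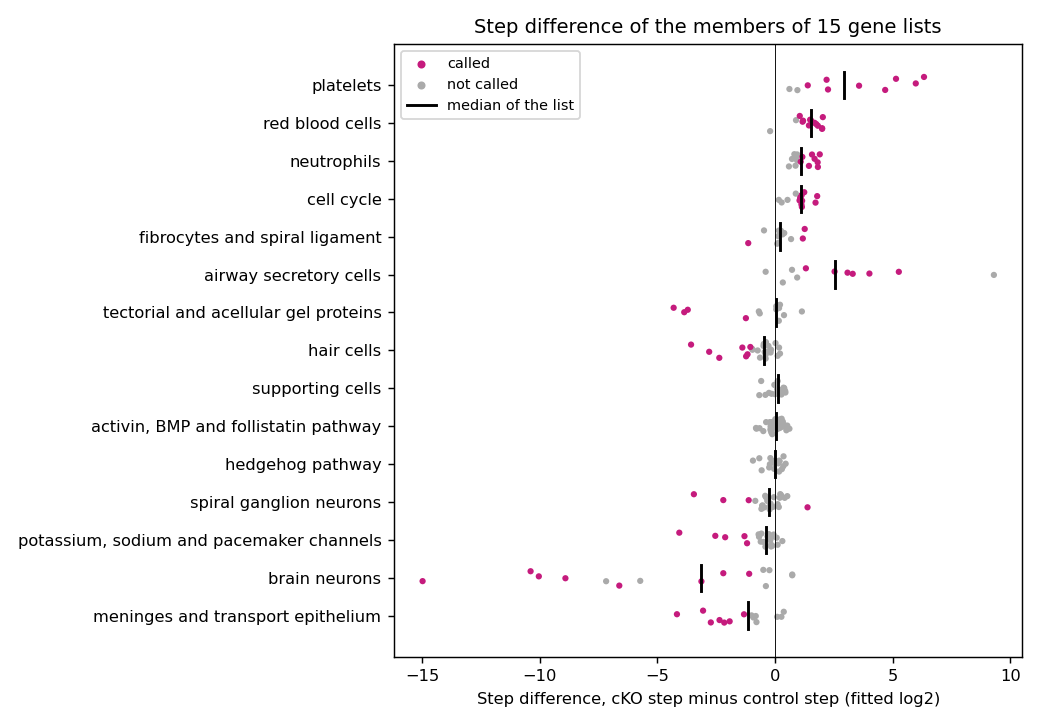
Fitted log2 step difference, cKO step minus control step (x axis), of each tested member of 15 gene lists (y axis); points are genes, coloured where called, and vertical bars the median of each list. Red blood cell, platelet, neutrophil and cell cycle genes have medians of 1.09 to 2.91, meningeal genes of -1.16, and the supporting cell, hedgehog and activin lists have no called member; points beyond 5 in size belong to genes with few or no counts in at least 1 pool.

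The pathways named for the study showed no called step difference. Follistatin acts on activins and BMPs, which signal through type I and type II receptors to SMAD proteins, and Shh signals through Ptch1 and Smo to the GLI factors. None of 35 activin, BMP and follistatin pathway genes was called (median 0.03, range -0.81 to 0.61). Among ligands, Inhba, which encodes the activin A subunit, had steps of 1 and 1.52 (0.52 ± 0.23, adjusted p = 0.0707), Inhbb 0.33 ± 0.27, Bmp4 0.61 ± 0.065, Bmp2 -0.79 ± 0.16 and Gdf10 -0.81 ± 0.11. Among targets, Id1 had 0.39 and Smad6, an inhibitory SMAD, 0.48. None of 19 hedgehog genes was called (median 0, range -0.94 to 0.45). Gli1, the transcriptional target most often read as a sign of hedgehog activity, measured 4.71, 4.79 and 5.14 CPM in the control middle, 3.7, 4.07 and 4 CPM in the control apex, 8.91, 9.52 and 9.34 CPM in the cKO middle and 4.28, 3.26 and 3.85 CPM in the cKO apex. The cKO middle lay above the other 3 pools, and the 2 apices overlapped. Its step difference of -0.94 ± 0.14 (adjusted p = 3.13e-06) fell short of the size limit, and without cKO apex replicate 1 it was -1.03 and called. Ptch1, the receptor and another target, had -0.22 ± 0.041, Shh -0.2 ± 0.18 (adjusted p = 0.421) and Smo 0.36 ± 0.032.

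Retinoid and gradient genes had 3 of 18 called (16.7%, against 3.58% of all genes). Rbp4, the retinol carrier, fell from 6.54 to 0.314 CPM between control middle and apex and from 6.55 to 1.19 CPM in the cKO, a step that shrank by 1.94 ± 0.3 through the apex. Stra6, the receptor of this carrier, went from 4.54 to 4.76 CPM in the control and from 8.7 to 2.62 CPM in the cKO (-1.76 ± 0.16). Crabp1, a retinoic acid-binding protein, went from 1.8 to 1.95 CPM and from 1.24 to 3.06 CPM (1.22 ± 0.24). The retinoic acid-degrading enzyme gene Cyp26b1 had steps of -1.84 in the control and -1.66 in the cKO (difference 0.17 ± 0.13, not called). Other shrunk steps below 0 were those of the CRH receptor gene Crhr1 (-2.25 ± 0.069), Lrtm2 (-1.53 ± 0.076), the protocadherin gene Pcdh17 (-1.6 ± 0.11) and the matrix protein gene Tnc (-1.53 ± 0.11), each called in the middle only. Pla2g4b (-1.6 ± 0.3), also shrunk, was called in the apex only. Most of these steps changed sign, with a cKO step under 1 in size. Crhr1 went from 1.35 in the control to -0.9 in the cKO, Pcdh17 from 1.29 to -0.31, Tnc from 0.98 to -0.56 and Pla2g4b from 0.84 to -0.76. The Lrtm2 step went from 1.56 to 0.03. Pla2g4b was classed as grown in 5 of the 12 fits that left out 1 library (without control middle replicate 2, control apex replicate 1 or 2, cKO middle replicate 3 or cKO apex replicate 3). On log2(FPKM + 1) with limma Pla2g4b, Pcdh17, Tnc, Crabp1, Th and Apoa4 were not called. Apoa4, an apolipoprotein, grew to 3.14 from 1.86 with a low cKO middle (1.28 ± 0.14). At the edge of the size limit, Crhbp, which encodes the CRH-binding protein and was named after its values were seen, lay just inside it (186 and 392 CPM in control middle and apex, 222 and 228 CPM in the cKO; -1 ± 0.024). Without control apex replicate 2 or cKO apex replicate 3 it was not called, at a value that still rounds to -1. Ttr, which encodes transthyretin, lay just outside it (14.4 and 29.4 CPM, 21.2 and 21.1 CPM; -1 ± 0.065).

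Hapln2, a matrix protein of myelinated tracts, was called among 17 oligodendrocyte and astrocyte genes (1.87 ± 0.42), with a control middle of 6.11 CPM against 0.321 to 1.22 CPM in the other 3. Olig1, Mog, Mobp and Gfap had control steps of -3.84 to -5.23 and cKO steps of -3.56 to -5.54, and none was called. Of this list 6 members were called on log2(FPKM + 1) with limma. Of 12 melanocyte genes, Oca2 (-1.57 ± 0.43) and Tyrp1 (-1.58 ± 0.47) were called, both under 1 CPM in the 4 pools. Of 8 striated muscle genes, 2 were called in opposite directions, Myl1 (1.15 ± 0.14) and Myh4 (-2.9 ± 1), and the call of Myh4 was lost in 6 of the 12 fits that left out 1 library. Prg4 was the called member of 11 cartilage and joint genes. No member was called among 15 Schwann cell, 16 osteoblast, 12 stria vascularis, 12 endothelial, 13 immediate early or 15 core clock genes, whose medians lay between -0.3 and 0.11.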

How the data were processed

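RNA of 18 libraries, 3 technical libraries of each of 6 pools, had been prepared with ribosomal RNA removal, per the labels' protocols, and 12 were compared here. The submitters' processing notes name STAR 2.5.2b, Cuffdiff 2.2.1 and the GRCm38/mm10 build without saying what each did. The authors deposited 1 table of estimated counts and FPKM per gene and library. The deposited expected counts were not all whole (89.2 to 89.9% of values within 1e-06 of a whole number) and were rounded. Which counter made them is not given in the sources used here. The FPKM values were the authors' own per library and served one alternative.

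Genes passing edgeR's filterByExpr (17634 of 46583) were fitted in edgeR 4.0.16 (R 4.3.3) by quasi-likelihood with TMM factors of 0.987 to 1.02, 1 coefficient per pool and 8 residual degrees of freedom. The step difference and the 4 simple differences were tested 2-sided as contrasts, with Benjamini-Hochberg adjustment over all genes of a contrast. Calls needed an adjusted p under 0.05 and a log2 value of at least 1 in size. Pools were compared for standing apart on log2 CPM with a prior count of 2. A floor is 3 counts, and intervals of count ratios are exact 95% intervals, both for counting error only. Positions are those of the annotation on GRCm38, and promoter windows are RefSeq's. The script was tested on simulated data. The alternatives were DESeq2 1.42.0, its size factors, 2 filters on low counts, all 6 pools in 1 fit, glmTreat, limma 3.58.1 on log2(FPKM + 1), a replicate block and leaving out each library in turn.

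The genes, lists and classes were chosen with earlier results of these data known, and a list's counts are descriptions. Named genes were Fst, Tectb, Tecta, Inhba, Inhbb, Gli1, Ptch1 and Shh, the 6 largest step differences per class and sign among called genes of at least 5 CPM (without duplicate symbols, pseudogenes and unnamed models), and at most 4 called members per list with members not called. Genes outside that rule, such as Slc4a10, Kcnq5, Kcnb2, Kl, Crhbp, Xist, Atn1, Gabra6 and Cbln3, and list members beyond the fourth, were named after their values were seen. A few genes that the rule names are not reported here.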

Additional observations from a re-analysis of the deposited data

Results flagged for a closer look

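The genotype difference depended on the region for 632 genes by the test of the difference itself (edgeR's quasi-likelihood test, 3.58% of the genes tested). For 27 of them the genotype difference was called in both regions with opposite signs, and 5 of these reached 5 CPM in a pool. Tectb (-3.86) was lower in the cKO apex and higher in the cKO middle, as were Slc47a1 (-2.73), Prg4 (-3) and Zic1 (-3.13). Ppbp (6.33) was higher in the cKO apex and lower in the cKO middle. Each of these directions held in all 3 libraries of each pool, which are technical libraries of 1 pool.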

How the results depend on the processing

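No called step difference of a named gene changed sign under any alternative run, while that of Oc90, not called at -0.07, turned to between 0.02 and 0.09 without 5 of the libraries. The 632 calls (287 above 0, 345 below 0) became 543 with DESeq2, of which 532 were shared, 630 with its size factors, 695 with no filter and 645 with all 6 pools in the fit, and DESeq2 called 13 inverted steps in place of 22. Libraries with the same replicate number in different pools were only weakly alike. The 18 same-number correlations of deviations lay between -0.0065 and 0.0516, with a median of 0.0148. The 36 different-number correlations lay lower, between -0.0414 and 0.0116, with a median of -0.0077. The fit with a replicate block called 633 genes, 625 of them shared.

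Stricter settings kept fewer genes. Restricting the fit to genes of at least 5 CPM gave 201 calls (76 above and 125 below 0), 280 control steps, 238 cKO steps, 66 genotype differences in the apex and 125 in the middle. It left 83 shrunk, 111 grown and 7 inverted steps, 81 called in the middle only, 37 in the apex only, 8 in both and 75 in neither, with the cKO middle high for 57, the control apex low for 23, the cKO apex high for 4 and the control middle low for 7. Testing against a log2 value of 1 (glmTreat) gave in the same order 180 (69 and 111), 350, 339, 104 and 226, then 73, 102 and 5, then 94, 34, 4 and 48, then 67, 37, 9 and 10. On log2(FPKM + 1) with limma the values were 177 (73 and 104), 208, 211, 53 and 119, then 69, 107 and 1, then 86, 21, 4 and 66, then 61, 24, 9 and 7. The FPKM scale understates changes of low genes, and the cause of its other differences was not tested.

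Leaving out 1 library at a time gave 616 to 644 calls (275 to 298 above and 331 to 355 below 0), 930 to 954 control steps, 814 to 839 cKO steps, 355 to 382 genotype differences in the apex and 494 to 513 in the middle. Shrunk steps ranged from 291 to 324, grown from 273 to 315 and inverted from 17 to 29. The regions ranged over 209 to 236, 146 to 158, 30 to 36 and 209 to 230, and the pools over 105 to 119, 66 to 70, 20 to 28 and 24 to 28. No whole pool can be left out of a contrast of 4 pools, so no alternative bears on the spread between animals.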

Other observations

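Markers of the vestibular epithelium and its otoliths, a list added after the data were seen, had 1 of 4 tested members called. Otol1 was that member. Otop1, needed for otolith formation, measured 21 CPM in the control middle, 26.8 in the control apex, 23.8 in the cKO middle and 20.7 in the cKO apex (-0.52 ± 0.06, not called). Oc90, an otolith matrix protein, had -0.07 ± 0.43 and Cib3 -1.43 ± 0.76 (adjusted p = 0.143), neither called. On log2(FPKM + 1) with limma Cib3 was called at -1.17. Nox3, an oxidase known from the vestibule, was not tested for its low counts, with 30 counts in the cKO middle, 1 in the control middle and 0 in both apices.

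Of the 632 called genes 526 were protein coding, 36 antisense and 22 lincRNA, and 98 lay on any of the lists used.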
